A study of Mus musculus with 12 samples.

Results

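The 10 genes described here are the Toll-like receptor (TLR) family of mouse bone marrow–derived macrophages (BMDMs): Tlr1, Tlr2, Tlr3, Tlr4, Tlr5, Tlr6, Tlr7, Tlr8, Tlr9 and Tlr13. They were chosen by gene symbol among the 55335 genes of the expression table. Of the 10 members, 9 were among the 12622 genes that passed the filter on low values, and Tlr5 did not pass. RNA sequencing was made of 12 libraries in 4 groups of 3, to ask how the loss of the inflammasome sensor NLRP3 alters macrophages with and without LPS and ATP costimulation. Wild-type control and Nlrp3-/- control BMDMs were not stimulated. Wild-type LPS+ATP and Nlrp3-/- LPS+ATP BMDMs received lipopolysaccharide (LPS) for 4 hours and then adenosine triphosphate (ATP) for 30 minutes according to the sample labels, whereas the culture methods of the study give longer times for both. All BMDMs were adherent cells grown from the marrow of C57BL/6 mice aged 8 weeks with macrophage colony-stimulating factor, and the Nlrp3-/- mice were whole-body knockouts. The wild-type and Nlrp3-/- mice came from different suppliers. Nothing in the labels or methods says that the 3 libraries of a group came from separate mice or cultures, so p-values measure the spread between these libraries, which may be technical.

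TLRs are receptors of the innate immune system that bind microbial molecules and signal through cytoplasmic TIR domains, the adaptors MyD88 and TRIF, and the transcription factors NF-κB and IRF. TLR1, TLR2, TLR4, TLR5 and TLR6 act at the cell surface on bacterial lipids, lipoproteins and flagellin, and TLR4 with its co-receptors is the receptor of LPS. TLR3, TLR7, TLR8, TLR9 and TLR13 sense nucleic acids inside endosomes, where the chaperone UNC93B1 delivers them.

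LPS and ATP costimulation changed 6 members in the same direction in both genotypes. Tlr1, Tlr2 and Tlr3 rose, and Tlr8, Tlr9 and Tlr13 fell. Of all tested genes, 8.25% were called higher and 11.2% lower in wild-type, and 6.64% and 8.21% in Nlrp3-/- BMDMs. The share of all genes called in both genotypes was not counted. For Tlr8 in Nlrp3-/- BMDMs the fall was under the fold limit after upper-quartile (-0.96) and median-ratio scaling (-0.80). Tlr2 rose 3.59-fold in wild-type and 3.26-fold in Nlrp3-/- BMDMs, and Tlr13 fell 2.59-fold and 2.54-fold. Tlr4 and Tlr7 differed widely between libraries of the same group, and the direction or the call of some of their comparisons turned on single libraries. No member passed the criteria for a difference between genotypes.

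The levels are FPKM, a fragment count per kilobase of gene length relative to the mapped total of the library, and the differences are log2 fold changes of FPKM + 1 from limma with all 4 groups in the fit. A gene was called changed at a Benjamini-Hochberg adjusted p under 0.05 over all tested genes where its log2 fold change also reached 1, up or down. FPKM carries no read counts, so the sequencing depth in reads is unknown, and the number of libraries limits the precision. Adding 1 to FPKM understates the changes of genes with low levels.

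The groups differed in other measures as well. Nlrp3 averaged 9.68 ± 0.425 FPKM without and 32.9 ± 0.801 FPKM with LPS+ATP in wild-type BMDMs (SD, n = 3 each), while all 6 Nlrp3-/- libraries listed it at 0. Xist, the RNA that coats the silenced X chromosome of females, was between 32.8 and 56.3 FPKM in Nlrp3-/- libraries and at most 0.0416 FPKM in wild-type libraries, whereas Ddx3y, Eif2s3y, Kdm5d and Uty of the Y chromosome had a listed value of 0 in every Nlrp3-/- library and above 0 in every wild-type library. Genotype and donor sex therefore cannot be told apart in these libraries. The 7 macrophage markers tested, among them Adgre1 and Csf1r, were all expressed, and their summed FPKM ranged from 2198 to 2264 in wild-type control, 1788 to 1815 in wild-type LPS+ATP, 1576 to 1596 in Nlrp3-/- control and 1431 to 1460 in Nlrp3-/- LPS+ATP BMDMs. Fibroblast markers (6 genes) summed to at most 183 FPKM in wild-type and to between 891 and 1182 FPKM in Nlrp3-/- libraries. Markers of neutrophils and their precursors (8 genes) summed to between 331 and 367 FPKM in wild-type control, 328 and 342 FPKM in wild-type LPS+ATP, 1782 and 1830 FPKM in Nlrp3-/- control and 703 and 711 FPKM in Nlrp3-/- LPS+ATP libraries. The steady sum in the wild type held opposite changes, since of the 7 markers tested 1 rose and 4 fell with stimulation. Lcn2 went from 9.96 to 218 FPKM on average, while S100a9 went from 160 to 49.9 and Ngp from 96.3 to 17.6 FPKM. In Nlrp3-/- BMDMs 1 rose and 5 fell. Markers of B cells, conventional dendritic cells and T and NK cells summed to at most 2.16, 1.04 and 0.560 FPKM in any library. Of the 5 genes listed for plasmacytoid dendritic cells, Bst2 and Tcf4 alone reached a group mean of 1 FPKM, and Siglech was at most 0.0688 FPKM. In bulk RNA, fewer cells of a type and less RNA per cell cannot be told apart.

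The sequences before the transcription start of the 6 members that changed in both genotypes are shown so that the genes that rose and those that fell can be read side by side. RefSeq windows on GRCm38.p6, reaching from 250 bases before to 50 bases after a start, were matched by symbol for 8 of the 10 members, in 10 windows. Tlr4 and Tlr7 had no window and were not searched. The 250 bases before the start are printed 5′ to 3′ on the strand of the gene, with Tlr1 given for the upstream of its 2 windows. Capitals mark matches, on either strand, to the κB consensus motif, the interferon response motif (GAAA repeated after any 2 bases), the PU.1 motif GAGGAAGT and the TATA motif TATAAA.
Tlr1, chr5:64933559-64933808, minus strand: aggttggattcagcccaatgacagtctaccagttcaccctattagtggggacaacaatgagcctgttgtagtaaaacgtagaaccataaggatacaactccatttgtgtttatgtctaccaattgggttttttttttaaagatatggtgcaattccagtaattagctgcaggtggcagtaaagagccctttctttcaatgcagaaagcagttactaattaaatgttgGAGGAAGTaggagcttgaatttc
Tlr2, chr3:83841609-83841858, minus strand: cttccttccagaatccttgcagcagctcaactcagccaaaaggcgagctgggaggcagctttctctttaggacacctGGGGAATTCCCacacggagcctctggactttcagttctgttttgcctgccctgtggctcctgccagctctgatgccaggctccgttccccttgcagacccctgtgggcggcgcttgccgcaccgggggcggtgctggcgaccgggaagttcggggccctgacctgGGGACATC
Tlr3, chr8:45410381-45410630, minus strand: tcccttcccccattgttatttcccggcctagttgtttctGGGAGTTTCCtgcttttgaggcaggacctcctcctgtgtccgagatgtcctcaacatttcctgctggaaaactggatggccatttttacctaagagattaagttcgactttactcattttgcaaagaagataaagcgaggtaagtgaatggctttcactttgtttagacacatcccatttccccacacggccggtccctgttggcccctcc
Tlr8, chrX:167264330-167264579, minus strand: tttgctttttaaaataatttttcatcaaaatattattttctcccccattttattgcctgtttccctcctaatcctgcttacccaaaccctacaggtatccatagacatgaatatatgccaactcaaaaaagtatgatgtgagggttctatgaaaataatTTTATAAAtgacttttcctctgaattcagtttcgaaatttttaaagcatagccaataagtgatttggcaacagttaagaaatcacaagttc
Tlr9, chr9:106222348-106222597, plus strand: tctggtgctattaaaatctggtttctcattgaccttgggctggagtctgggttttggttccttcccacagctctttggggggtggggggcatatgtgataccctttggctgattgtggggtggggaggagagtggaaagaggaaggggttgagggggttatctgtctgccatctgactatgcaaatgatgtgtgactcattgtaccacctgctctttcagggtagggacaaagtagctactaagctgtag
Tlr13, chrX:106143025-106143274, plus strand: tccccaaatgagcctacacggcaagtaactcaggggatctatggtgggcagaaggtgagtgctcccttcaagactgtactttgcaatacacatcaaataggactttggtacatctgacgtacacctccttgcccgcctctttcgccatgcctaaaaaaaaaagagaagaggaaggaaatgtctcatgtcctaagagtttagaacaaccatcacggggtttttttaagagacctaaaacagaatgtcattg

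Of the genes that rose, Tlr2 and Tlr3 held matches to the κB consensus motif. In Tlr2, 3 overlapping matches on both strands spanned 173 to 163 bases before its start and another began 8 bases before the start and ran over it, and in Tlr3 a match lay from 211 to 202 bases before its start. Tlr1 held the PU.1 motif from 23 to 16 bases before its start. The consensus was added after the windows had been read. A narrower κB form searched at first, GGG and TTTCC with any 2 bases between them, matched Tlr3 and no other member with a window. Of the genes that fell, Tlr8 held the TATA motif on both strands between 91 and 84 bases before its start, where the pair of matches overlapped. The single match of Tlr9, to the PU.1 motif on the minus strand, lay 11 to 18 bases after its start, outside the printed bases, and Tlr13 held none. Among the other members with a window, Tlr5 held no match. Tlr6 held a pair of overlapping matches to the interferon response motif in the first of its windows and 3 matches to the TATA motif in the other. Over 32851 windows of this length in the mouse genome, 4.51% held the κB consensus motif, 1.63% its narrower form, 3.44% the interferon response motif, 3.20% the PU.1 motif and 13.6% the TATA motif. The windows also differed in base composition, without a division between the genes that rose and those that fell. Tlr1 had a GC content of 40.3% with 3 CpG dinucleotides in the window shown and 48.3% with 9 in the other, Tlr2 of 62.0% with 11 and Tlr3 of 51.0% with 10, while Tlr8 had 32.3% with 1, Tlr9 49.7% with 0 and Tlr13 43.3% with 5. Medians over all windows were 52.7% and 7. A match to a few letters is a description of the sequence and was not tested against binding.

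Tlr2, on chromosome 3, encodes the receptor that pairs with TLR1 or TLR6 to bind bacterial lipoproteins. It was 29.8, 29.7 and 28.1 FPKM in the 3 wild-type control libraries and 106, 102 and 107 FPKM with LPS+ATP. In Nlrp3-/- BMDMs it was 38.5, 35.9 and 35.8 FPKM in control and 116, 120 and 124 FPKM with LPS+ATP. Every stimulated library lay above every control library, and the libraries of the 4 groups did not overlap at all. The log2 fold change with stimulation was 1.81 (standard error 0.04, adjusted p = 5.347e-12) in wild-type and 1.68 (standard error 0.04, adjusted p = 1.294e-11) in Nlrp3-/- BMDMs. Stimulation made Tlr2 the most abundant member in both genotypes by mean FPKM.

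Tlr1, on chromosome 5, encodes the partner of TLR2 for triacylated lipoproteins. In wild-type BMDMs it was 9.46, 13.7 and 14.4 FPKM in control and 38.2, 36.2 and 35.4 FPKM with LPS+ATP. Nlrp3-/- control libraries gave 9.19, 12.3 and 12.2 FPKM, and those with LPS+ATP gave 43.4, 45.6 and 31.3 FPKM. Stimulated and control libraries were well apart, whereas the genotypes overlapped in both states. Its rise on the log2 scale was 1.50 (standard error 0.17, adjusted p = 8.299e-06) in wild-type and 1.74 (standard error 0.17, adjusted p = 2.757e-06) in Nlrp3-/- BMDMs.

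Tlr6, the neighbour of Tlr1 on chromosome 5, encodes the partner of TLR2 for diacylated lipoproteins. Its values were 11.5, 9.84 and 11.0 FPKM in wild-type control and 15.1, 15.8 and 14.7 FPKM in wild-type LPS+ATP BMDMs. Those of Nlrp3-/- BMDMs were 7.54, 7.11 and 7.71 FPKM in control and 11.0, 11.8 and 10.8 FPKM with LPS+ATP. The stimulated libraries again lay above the controls of their genotype, by less than for Tlr1 and Tlr2. Its log2 fold changes of 0.46 (standard error 0.06, adjusted p = 1.993e-05) and 0.53 (standard error 0.06, adjusted p = 7.616e-06) were under the fold limit, so Tlr6 was not called. The longest transcripts of Tlr1 and Tlr6 were 88.8% identical over 1328 bases, below the 95% set for a near copy. How reads that match both genes were counted is not given in the sources used here.

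The levels of the partners were also set against that of Tlr2. Per library, Tlr6 FPKM divided by Tlr2 FPKM averaged 0.369 ± 0.0331 (SD, n = 3) in wild-type control and 0.145 ± 0.00886 (SD, n = 3) in wild-type LPS+ATP BMDMs. The ratio in Nlrp3-/- BMDMs was 0.203 ± 0.0106 in control and 0.0935 ± 0.00564 with LPS+ATP (SD, n = 3 each). Tlr1 divided by Tlr2 was 0.430 ± 0.101, 0.349 ± 0.0156, 0.307 ± 0.0592 and 0.336 ± 0.0726 in control and stimulated wild-type and in control and stimulated Nlrp3-/- BMDMs, in that order (SD, n = 3 each). Control and stimulated libraries overlapped in the Tlr1 ratio and did not overlap in the Tlr6 ratio, in either genotype. These ratios are given as a description, with no test.

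Tlr4, on chromosome 4, encodes the receptor of LPS itself. It was 16.7, 3.61 and 3.06 FPKM in wild-type control and 3.66, 2.43 and 11.9 FPKM in wild-type LPS+ATP BMDMs. Nlrp3-/- libraries gave 3.95, 3.92 and 13.0 FPKM in control and 1.67, 2.46 and 3.01 FPKM with LPS+ATP. In each of the first 3 groups a single library stood far above the other pair, namely wild-type control replicate 1, wild-type LPS+ATP replicate 3 and Nlrp3-/- control replicate 3. The log2 fold change with stimulation was -0.23 (95% confidence interval -1.63 to 1.17, adjusted p = 0.7539) in wild-type and -1.07 (95% confidence interval -2.47 to 0.33, adjusted p = 0.1494) in Nlrp3-/- BMDMs. Without wild-type control replicate 1 the wild-type value was 0.45, so not even its direction was stable. In Nlrp3-/- BMDMs every stimulated library lay below every control library, and the value stayed between -1.32 and -0.57 with any 1 library left out. The intervals are too wide to show a change or the lack of one.

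Tlr5, on chromosome 1, encodes the flagellin receptor and was the lowest member. It was 0.177, 0.274 and 0.160 FPKM in wild-type control and 0.318, 0.398 and 0.472 FPKM in Nlrp3-/- control BMDMs. Stimulated wild-type libraries all listed it at 0, and stimulated Nlrp3-/- libraries gave 0.0311, 0.0897 and 0 FPKM. The stimulated libraries lay below the controls in both genotypes, at levels that the filter kept out of the test. Tlr11 and Tlr12, which sense protozoan profilin, were likewise at most 0.146 and 0.216 FPKM in any library.

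Tlr3, on chromosome 8, encodes the endosomal sensor of double-stranded RNA and is the member that signals through TRIF alone. Wild-type libraries gave 2.81, 2.13 and 1.82 FPKM in control and 10.5, 9.63 and 11.7 FPKM with LPS+ATP. In Nlrp3-/- BMDMs it was 1.88, 1.91 and 2.20 FPKM in control and 12.9, 11.8 and 11.5 FPKM with LPS+ATP. The stimulated libraries were far above the controls, and the genotypes overlapped in both states. The log2 fold changes were 1.85 (standard error 0.10, adjusted p = 1.971e-08) in wild-type and 2.12 (standard error 0.10, adjusted p = 7.918e-09) in Nlrp3-/- BMDMs, and as a ratio of mean FPKM the rises were 4.72-fold and 6.03-fold, the largest among the members called. Gm45542 overlaps Tlr3 in the annotation and was at most 0.174 FPKM in any library.

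Tlr13, on chromosome X, encodes a sensor of bacterial ribosomal RNA that is present in mouse and missing in human. It was 133, 129 and 131 FPKM in wild-type control, the highest level of any member, and 52.4, 48.2 and 51.4 FPKM in wild-type LPS+ATP BMDMs. Nlrp3-/- BMDMs gave 92.3, 96.2 and 92.7 FPKM in control and 35.2, 37.7 and 38.1 FPKM with LPS+ATP. None of the 4 groups overlapped, and stimulated libraries were the lower ones in each genotype. Tlr13 fell by 1.35 (standard error 0.04, adjusted p = 5.554e-11) on the log2 scale in wild-type and by 1.32 (standard error 0.04, adjusted p = 9.501e-11) in Nlrp3-/- BMDMs.

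Tlr8, a neighbour of Tlr7 on chromosome X, encodes a receptor related to the single-stranded RNA sensor TLR7. Its values were 42.9, 38.5 and 40.6 FPKM in wild-type control and 11.4, 12.8 and 11.8 FPKM in wild-type LPS+ATP BMDMs. Nlrp3-/- libraries gave 31.8, 32.3 and 31.2 FPKM in control and 14.4, 14.5 and 14.4 FPKM with LPS+ATP. The control libraries of the wild type were above those of Nlrp3-/- BMDMs, and with LPS+ATP this order was the other way round. It fell by 1.68 (standard error 0.05, adjusted p = 3.726e-11) on the log2 scale in wild-type and by 1.08 (standard error 0.05, adjusted p = 2.461e-09) in Nlrp3-/- BMDMs. After upper-quartile and median-ratio scaling the value in Nlrp3-/- BMDMs was -0.96 and -0.80, under the fold limit.

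Tlr9, on chromosome 9, encodes the sensor of unmethylated CpG DNA. It was 9.19, 9.58 and 10.2 FPKM in wild-type control and 2.51, 2.31 and 3.27 FPKM in wild-type LPS+ATP BMDMs. Without Nlrp3 it was 8.05, 7.52 and 7.80 FPKM in control and 1.64, 1.82 and 1.29 FPKM with LPS+ATP. Stimulated libraries lay far below the controls in both genotypes. Its log2 fold changes were -1.53 (standard error 0.10, adjusted p = 5.69e-08) in wild-type and -1.77 (standard error 0.10, adjusted p = 2.128e-08) in Nlrp3-/- BMDMs.

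Tlr7, on chromosome X, encodes the sensor of single-stranded RNA. It was 76.6, 27.8 and 26.3 FPKM in wild-type control and 29.6, 70.8 and 27.7 FPKM in wild-type LPS+ATP BMDMs. Nlrp3-/- control libraries gave 36.0, 16.3 and 17.4 FPKM, and those with LPS+ATP gave 57.8, 60.0 and 59.4 FPKM. As for Tlr4, a single library stood above the other pair in 3 of the groups, here wild-type control replicate 1, wild-type LPS+ATP replicate 2 and Nlrp3-/- control replicate 1, while the 3 libraries of Nlrp3-/- LPS+ATP BMDMs were close together. The log2 fold change with stimulation was 0.02 (95% confidence interval -0.98 to 1.02, adjusted p = 0.9773) in wild-type and 1.40 (95% confidence interval 0.40 to 2.40, adjusted p = 0.01569) in Nlrp3-/- BMDMs. The call in Nlrp3-/- BMDMs was lost without Nlrp3-/- control replicate 2 (log2 fold change 1.20, adjusted p = 0.05739) or replicate 3 (log2 fold change 1.25, adjusted p = 0.05308), the libraries with the lower values.

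**Figure D1:**
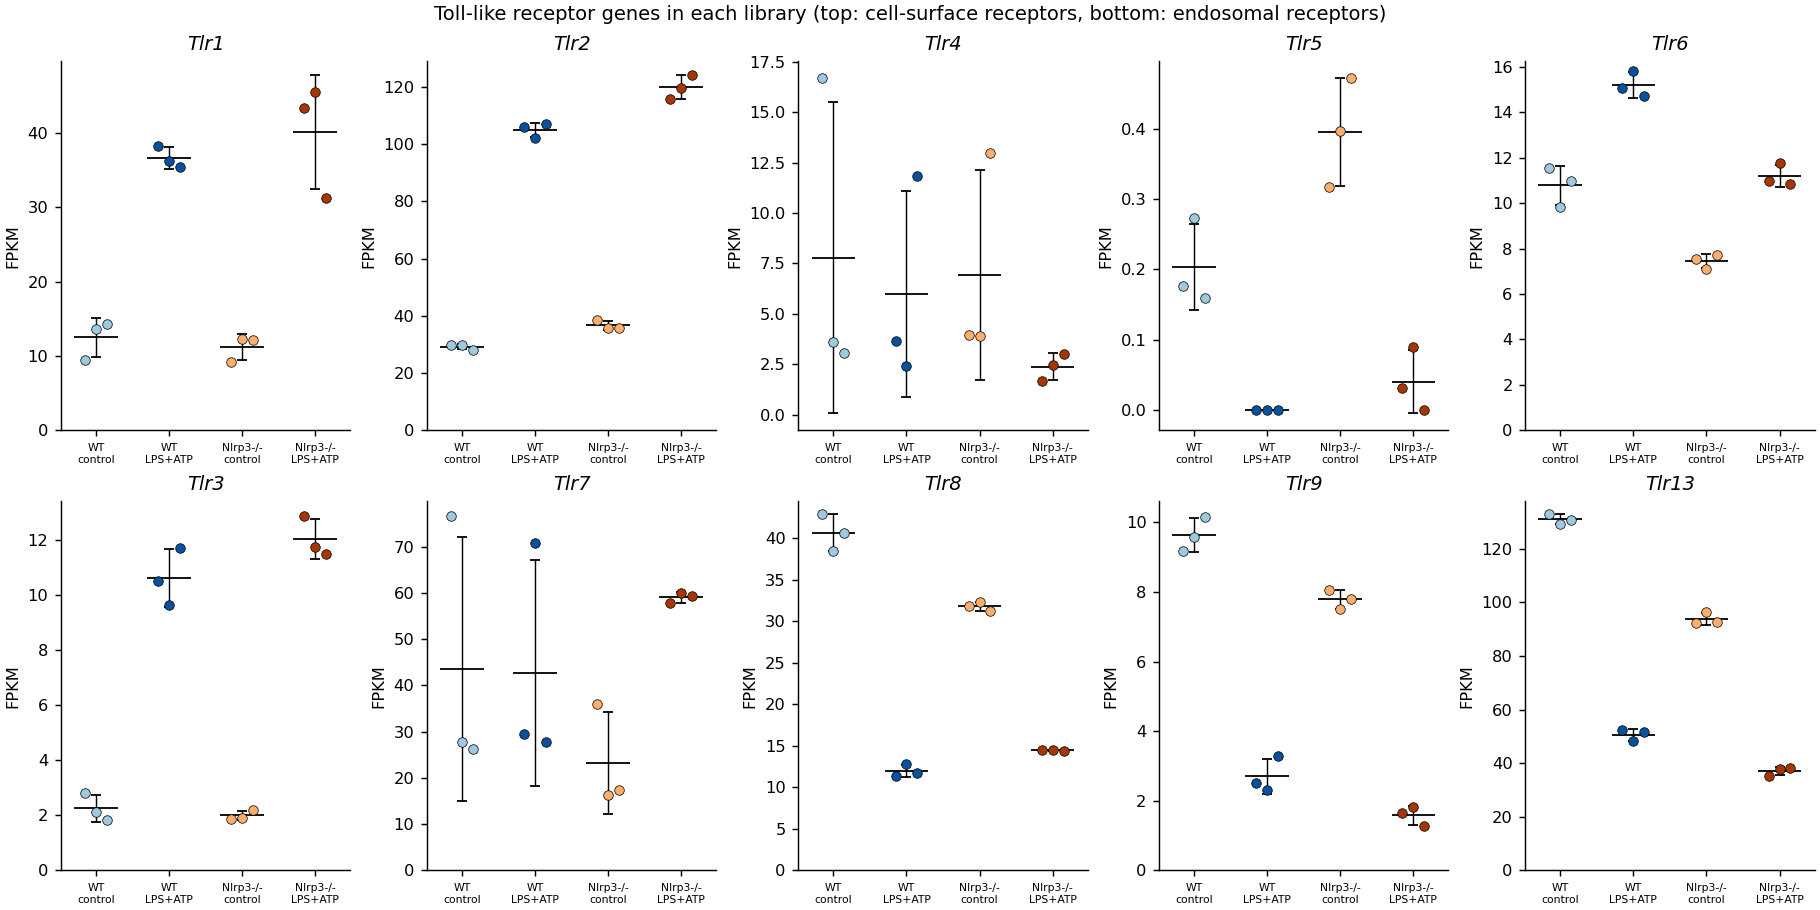
FPKM of each of the 10 genes (y axis, a scale of its own per panel) in the 4 groups (x axis), with 1 point per library in the order of replicates 1 to 3, the mean as a line and the SD as bars. Tlr1, Tlr2 and Tlr3 were higher and Tlr8, Tlr9 and Tlr13 lower with LPS+ATP in both genotypes, while single libraries of Tlr4 (16.7, 11.9 and 13.0 FPKM) and Tlr7 (76.6, 70.8 and 36.0 FPKM) stood apart from the others of their group.

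The spread of Tlr4 and Tlr7 was unusual among genes of these libraries. The highest library of a group was 5.45, 4.87, 3.31 and 1.80 times the lowest for Tlr4 in control and stimulated wild-type and in control and stimulated Nlrp3-/- BMDMs, in that order, and 2.92, 2.56, 2.21 and 1.04 times for Tlr7. Among tested genes with a group mean of at least 1 FPKM, between 2.41% and 2.86% in a group had a ratio over 2, and with a group mean of at least 10 FPKM between 1.18% and 1.38%. For Tlr1, Tlr2, Tlr3, Tlr6, Tlr8, Tlr9 and Tlr13 the ratio was at most 1.54 in any group. The libraries with high Tlr4 and those with high Tlr7 were the same only in wild-type control. Pearson's r of log2 values over tested genes was between 0.990 and 0.993 for every pair of libraries of a group. A value over so many genes cannot show whether these libraries differed in a small set of genes. The reason for the spread was not tested.

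**Figure D2:**
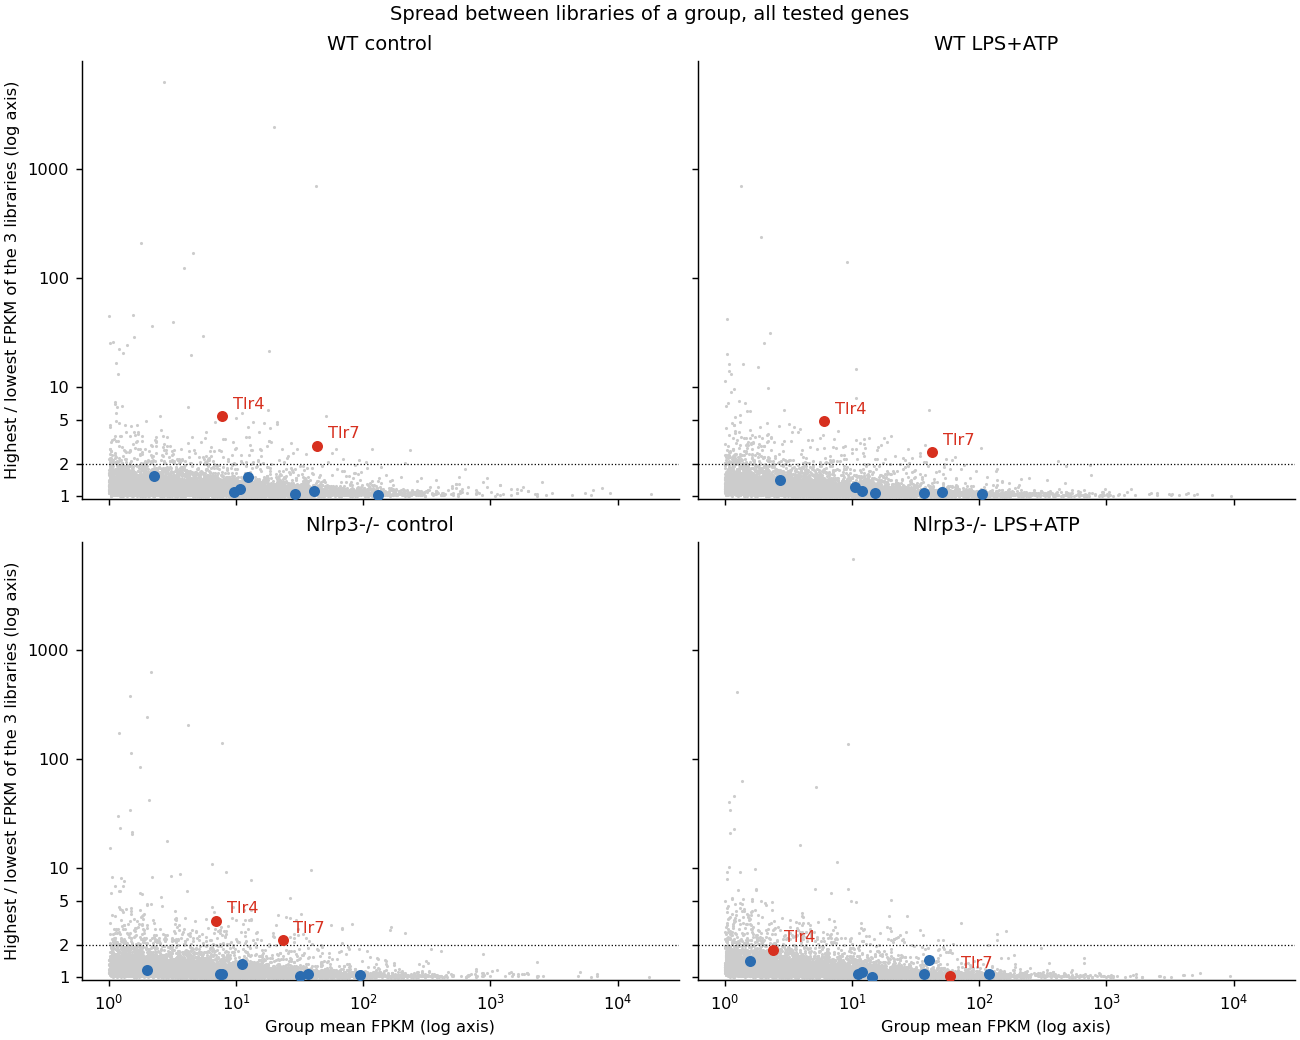
Ratio of the highest to the lowest FPKM among the 3 libraries of a group (y axis, log scale) against the mean FPKM of the group (x axis, log scale), in a panel per group, for tested genes with a mean of at least 1 FPKM and no library at 0 (grey), for Tlr4 and Tlr7 (red) and for the other Toll-like receptor genes (blue). The dotted line marks a ratio of 2, above which Tlr4 and Tlr7 lay in 3 of the 4 groups.

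With stimulation in wild-type BMDMs, 3 of the 9 tested members were called higher and 3 lower, while over all tested genes 8.25% were called higher and 11.2% lower. In Nlrp3-/- BMDMs, 4 members rose and 3 fell, beside 6.64% and 8.21% of all tested genes. The median log2 fold change of the 9 members was 0.02 in wild-type and 0.53 in Nlrp3-/- BMDMs, against -0.25 and -0.24 over all tested genes. Median-ratio scaling moved the median of all genes to -0.01 in both genotypes and changed the balance of calls over the table, from 1041 higher and 1411 lower to 1399 and 876 in wild-type, and from 838 and 1036 to 1093 and 604 in Nlrp3-/- BMDMs. Upper-quartile scaling gave 1220 higher and 1087 lower in wild-type. Under either scaling 2 members in place of 3 were called lower in Nlrp3-/- BMDMs, since Tlr8 did not reach the fold limit, and without Nlrp3-/- control replicate 2 or replicate 3 the members called higher were 3 in place of 4, since the call of Tlr7 was lost. Under median-ratio scaling the directions of the 6 members called in both genotypes were kept. Both comparisons of the same member used separate libraries.

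**Figure D3:**
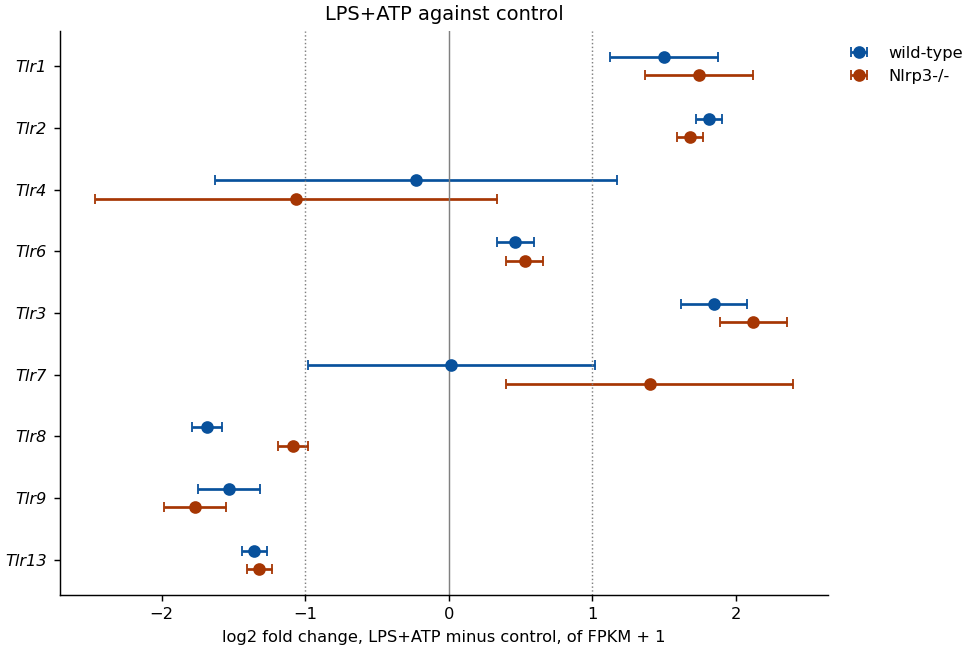
Log2 fold change of FPKM + 1 with LPS+ATP against control (x axis) for the 9 tested members (y axis), in wild-type (blue) and Nlrp3-/- (brown) BMDMs, with bars for the 95% confidence interval from limma and dotted lines at the fold limit of 1. Tlr1, Tlr2 and Tlr3 lay beyond the upper limit and Tlr8, Tlr9 and Tlr13 beyond the lower limit in both genotypes, and the intervals of Tlr4 and Tlr7 were the widest.

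Between genotypes, no member was called by limma in either state. Of the 9 tested members, 0 were called in control BMDMs, where Nlrp3 loss went with 6.02% of all tested genes called higher and 0.689% called lower. With LPS+ATP, 0 members were called, beside 4.48% higher and 0.57% lower over all tested genes. By adjusted p alone, without the fold limit, 1 member was higher and 4 were lower in Nlrp3-/- control BMDMs, where 33.3% and 14.5% of all tested genes were. With LPS+ATP, 2 were higher and 3 lower by adjusted p alone, beside 35.9% and 12.6%. The median log2 fold change of the members was -0.28 in control and 0.11 with LPS+ATP, against 0.09 and 0.11 over all tested genes.

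Tlr13 and Tlr6 were lower in Nlrp3-/- BMDMs in both states by adjusted p alone. Tlr13 had log2 fold changes of -0.48 in control (adjusted p = 1.516e-06) and -0.44 with LPS+ATP (adjusted p = 3.314e-06), and every Nlrp3-/- library lay below every wild-type library of its state. Tlr6 had log2 fold changes of -0.48 (adjusted p = 3.818e-05) and -0.41 (adjusted p = 0.0001311), again without overlap of the libraries. The same held for Tlr9, with -0.28 (adjusted p = 0.03754) and -0.51 (adjusted p = 0.001142). These differences were well under 2-fold, from 1.24-fold for Tlr9 in control to 1.70-fold for Tlr9 with LPS+ATP as ratios of mean FPKM.

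Tlr2 was higher in Nlrp3-/- BMDMs by adjusted p alone, by 0.32 in control (adjusted p = 4.874e-05) and 0.19 with LPS+ATP (adjusted p = 0.002319) on the log2 scale. Median-ratio scaling, which moved the median of all genes by -0.12 in control and -0.15 with LPS+ATP, left 0.17 in control (adjusted p = 0.003526) and took the difference with LPS+ATP to -0.00083 (adjusted p = 0.9885). Tlr8 was lower in Nlrp3-/- control BMDMs, with a log2 fold change of -0.34 (adjusted p = 9.642e-05), and higher with LPS+ATP, with 0.25 (adjusted p = 0.0009624). Under median-ratio scaling the latter was 0.08 (adjusted p = 0.2226). Tlr1 and Tlr3 had log2 fold changes between -0.13 and 0.17 in both states, with adjusted p of at least 0.2159. For Tlr4 and Tlr7 the genotype intervals were the widest, such as -1.79 to 0.21 for Tlr7 in control (log2 fold change -0.79, adjusted p = 0.1793) and -2.22 to 0.58 for Tlr4 with LPS+ATP (log2 fold change -0.82, adjusted p = 0.3146).

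Genotype moved with donor sex and with the fibroblast and neutrophil marker sums given above, and their part in these differences was not tested. Tlr7, Tlr8 and Tlr13 are X-linked. Over the 402 tested genes of the X chromosome the median log2 fold change between genotypes was 0.08 in control and 0.13 with LPS+ATP, beside 0.09 and 0.11 over all tested genes. A median over so many genes cannot show how donor sex went with single genes such as Tlr7, Tlr8 or Tlr13. For Kdm5c, Kdm6a, Ddx3x and Eif2s3x, which escape X inactivation in mouse, the median log2 fold changes were 0.50 and 0.49. The summed macrophage markers were lower in Nlrp3-/- than in wild-type BMDMs in both states.

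**Figure D4:**
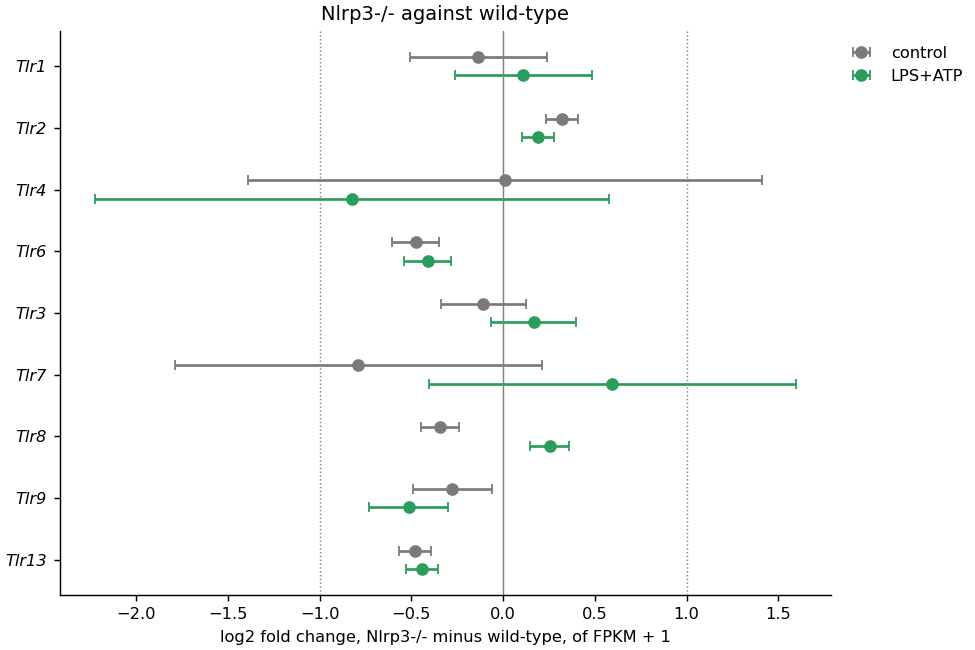
Log2 fold change of FPKM + 1 in Nlrp3-/- against wild-type BMDMs (x axis) for the 9 tested members (y axis), in control (grey) and with LPS+ATP (green), with bars for the 95% confidence interval from limma and dotted lines at the fold limit of 1. No value reached the fold limit, and Tlr6, Tlr9 and Tlr13 lay below 0 in both states.

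The interaction, which asks whether the response to stimulation differed between genotypes, was called by limma for 0 of the 9 members. Over all tested genes 0.721% had a positive and 1.43% a negative interaction term past the criteria. By adjusted p alone 1 member passed, Tlr8, with a positive term, while 14.7% of all tested genes passed with a positive and 13% with a negative term. The term of Tlr8 was 0.60 (standard error 0.07, adjusted p = 6.469e-05), which is a smaller fall in Nlrp3-/- BMDMs, and it was 0.57 after median-ratio scaling (adjusted p = 0.0001203). Tlr7 had a term of 1.38 (95% confidence interval -0.03 to 2.80, adjusted p = 0.1386), which passed the criteria without wild-type LPS+ATP replicate 2 (1.81, adjusted p = 0.04685). Tlr4 had a term of -0.84 with the widest interval (95% confidence interval -2.82 to 1.14, adjusted p = 0.5401). For Tlr1, Tlr2, Tlr3, Tlr6, Tlr9 and Tlr13 the terms lay between -0.24 and 0.28, with adjusted p of at least 0.1145.

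Surface receptors made up a larger share of the family with stimulation. The 5 surface members took 21.1% ± 0.627 (SD, n = 3) of the summed FPKM of the 10 genes in wild-type control and 58.0% ± 5.12 (SD, n = 3) in wild-type LPS+ATP BMDMs. In Nlrp3-/- BMDMs the share was 28.4% ± 2.75 in control and 58.3% ± 0.623 with LPS+ATP (SD, n = 3 each). Tlr2 alone went from 10.3% to 37.4% of the sum in wild-type, and Tlr13 from 46.0% to 18.1%. The sum itself was 288 ± 38.5 FPKM in wild-type control, 281 ± 16.6 in wild-type LPS+ATP, 221 ± 7.88 in Nlrp3-/- control and 298 ± 6.50 in Nlrp3-/- LPS+ATP BMDMs (SD, n = 3 each). Without Tlr4 and Tlr7 it was 236, 233, 191 and 236 FPKM. The shares are a description over the members, with no test.

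**Figure D5:**
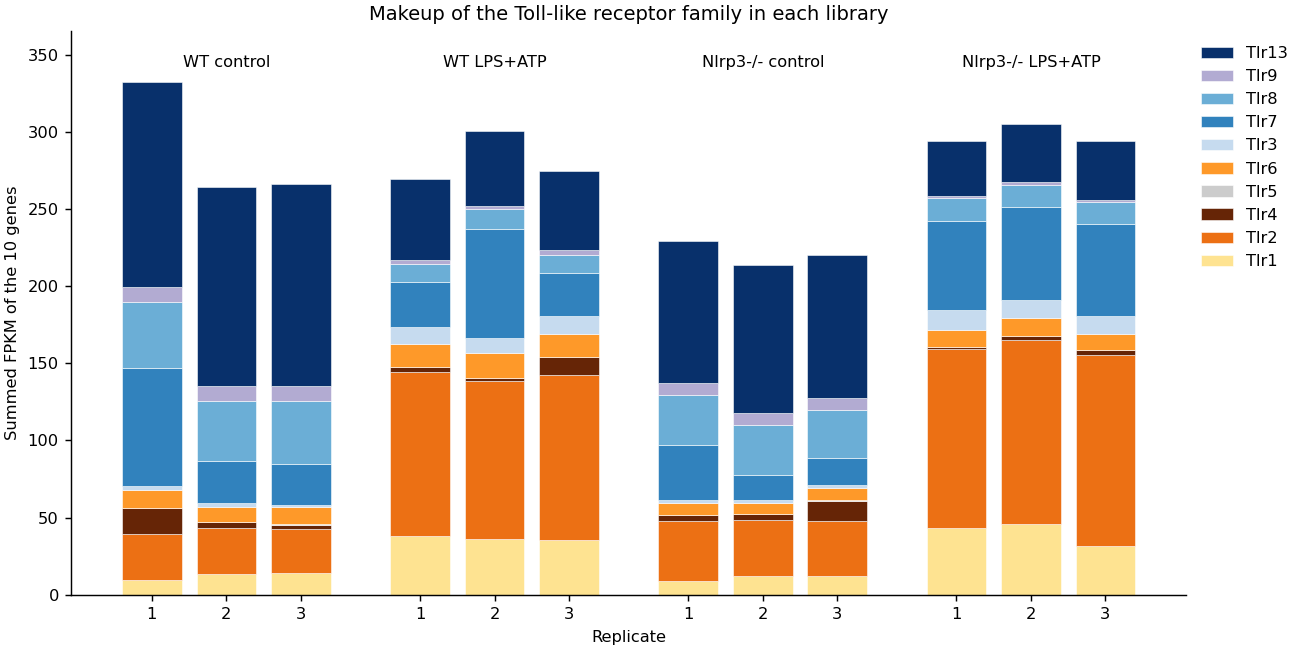
Summed FPKM of the 10 genes (y axis) in each of the 12 libraries (x axis, replicates 1 to 3 within a group), with a coloured segment per gene, surface receptors at the bottom in yellow to brown and grey, and endosomal receptors above in blue and violet. Surface receptors made up 21.1% and 28.4% of the sum on average in wild-type and Nlrp3-/- control BMDMs and 58.0% and 58.3% with LPS+ATP.

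By mean FPKM, the order in wild-type control BMDMs was Tlr13, Tlr7, Tlr8, Tlr2, Tlr1, Tlr6, Tlr9, Tlr4, Tlr3 and Tlr5. The libraries of Tlr7 and Tlr8 overlapped, and so did those of each neighbouring pair from Tlr1 to Tlr4. In wild-type LPS+ATP BMDMs the order was Tlr2, Tlr13, Tlr7, Tlr1, Tlr6, Tlr8, Tlr3, Tlr4, Tlr9 and Tlr5, where Tlr2 stood clear of the others, Tlr13 overlapped with Tlr7, and Tlr7 with Tlr1. Tlr13 also led in Nlrp3-/- control BMDMs, followed by Tlr2, Tlr8 and Tlr7, and the last pair overlapped. In Nlrp3-/- LPS+ATP BMDMs Tlr2 and Tlr7 led without overlap, followed by Tlr1 and Tlr13, which overlapped.

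Genes that serve these receptors or lie downstream of them were read from pathway lists of 82 genes, of which 75 were tested. With stimulation 22 were called higher and 5 lower in wild-type and 21 and 4 in Nlrp3-/- BMDMs, with median log2 fold changes of 0.15 and 0.12. In wild-type BMDMs these were 29.3% higher and 6.67% lower, beside 8.25% and 11.2% of all tested genes, and in Nlrp3-/- BMDMs 28% and 5.33%, beside 6.64% and 8.21%. Of the rises, 9 in each genotype were among transcription factors and targets. Inhibitors held another 7 in wild-type and 6 in Nlrp3-/- BMDMs. The lists include targets of TLR signalling and were chosen with earlier results of these data known. Their shares are therefore a description and no evidence of an excess. Among 8 co-receptors and genes of ligand handling, 2 rose and 2 fell in wild-type, and 2 rose and 1 fell in Nlrp3-/- BMDMs. Cd14, the co-receptor that hands LPS to TLR4, rose from 111 ± 2.24 to 530 ± 2.34 FPKM (SD, n = 3 each) in the wild type, and its log2 fold changes were 2.25 in wild-type and 2.48 in Nlrp3-/- BMDMs (adjusted p = 9.627e-15 and 4.909e-15 by limma). Ptx3, a secreted pattern recognition protein, rose by 2.68 and 1.78, and the scavenger receptor Cd36 fell by 1.35 and 1.71 on the log2 scale. Hmgb1, a nuclear protein that signals when released, fell by 1.26 in wild-type BMDMs and had a log2 fold change of -0.81 in Nlrp3-/- BMDMs (adjusted p = 1.814e-06), under the fold limit.

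Of 16 genes for chaperones, trafficking and processing, 1 rose and 3 fell in each genotype, with medians of -0.35 and -0.21. Slc15a3, an endolysosomal transporter of peptides, had log2 fold changes of 2.69 in wild-type and 2.28 in Nlrp3-/- BMDMs. Rab7b, a small GTPase of late endosomes, had log2 fold changes of -2.09 and -1.65, and Lgmn, a lysosomal protease that can cleave TLR9, of -1.44 and -1.21. Unc93b1, chosen for its role after values were seen, went from 175 ± 7.54 to 133 ± 2.32 FPKM in wild-type and from 135 ± 3.03 to 119 ± 2.62 FPKM in Nlrp3-/- BMDMs (SD, n = 3 each), with log2 fold changes of -0.40 and -0.18 under the fold limit.

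Among adaptors with a TIR domain or TLR-associated role, 5 of 7 were tested and 1 was called. This was Pik3ap1 in Nlrp3-/- BMDMs, with a log2 fold change of 1.08, against 0.77 in wild-type, under the fold limit, and an interaction term of 0.31 (adjusted p = 3.879e-05), also under it. Of the 18 kinases and ubiquitin ligases, 3 rose in wild-type and 2 in Nlrp3-/- BMDMs. Peli1, a ubiquitin ligase of the IRAK complex, rose by 1.87 and 1.36 on the log2 scale. Irak2 rose by 1.24 in wild-type and had a log2 fold change of 0.72 in Nlrp3-/- BMDMs (adjusted p = 0.01269), under the fold limit, and its interaction was not called (adjusted p = 0.2601). The kinase Ikbke rose by 1.15 in Nlrp3-/- BMDMs and had a log2 fold change of 0.92 in wild-type BMDMs (adjusted p = 4.745e-09), again under the limit. Of 13 tested inhibitors, 7 rose in wild-type and 6 in Nlrp3-/- BMDMs, with medians of 1.77 and 0.97. Socs1, a suppressor of cytokine signalling, rose by 4.21 and 3.77, and Acod1, which makes itaconate, by 8.31 and 6.24. Transcription factors and targets had 9 of 15 tested genes higher in each genotype, with Il1b at 10.13 and 8.66, Nos2, the inducible nitric oxide synthase, at 9.72 and 8.07, and the chemokine Ccl5 at 8.57 and 8.93 on the log2 scale.

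Between genotypes, 2 of the 75 genes of these lists were called in control BMDMs, both higher in Nlrp3-/- BMDMs, which is 2.67% beside 6.02% of all tested genes. They were Ptx3 (log2 fold change 1.88, adjusted p = 2.171e-10) and Acod1 (log2 fold change 1.31, adjusted p = 1.259e-09). With LPS+ATP 1 was higher, Il1rl1, a decoy and signalling receptor of interleukin-33 (log2 fold change 1.59, adjusted p = 1.71e-07), which is 1.33% beside 4.48%. There 2 were lower, 2.67% beside 0.57% of all tested genes, namely Il12b (log2 fold change -1.54, adjusted p = 9.693e-08) and Nos2 (log2 fold change -1.02, adjusted p = 1.662e-07). The interaction was called for 4 genes, 5.33% beside 1.43% of all tested genes, all with negative terms, which were Acod1 (-2.07), Il12b (-2.21), Nos2 (-1.65) and Il1b (-1.46). All 4 came from the lists of inhibitors and of transcription factors and targets, chosen with earlier results of these data known. The marker sums of fibroblasts and neutrophils differed between the same libraries, and their part in these values was not tested.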

How the data were processed

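RNA sequencing covered 12 BMDM libraries in 4 groups by genotype and stimulation. FPKM per gene and library was deposited by the authors. The aligner is not given in the sources used here, and the submitters' processing notes name GRCm39 and DESeq2 1.24.0 with no role. For 98.9% of 10261 tested genes with several transcripts, the deposited FPKM, multiplied by the exon length of the gene in GENCODE M21, came out in whole millionths within 0.02. FPKM is therefore per total exon length, and it holds no read counts. GENCODE M21 annotates GRCm38, whereas the notes name GRCm39, and this difference was not resolved. The steps between low values put relative depth between 1 and 1.22, and libraries summed to between 283278 and 299393 FPKM. The columns named genotype, stimulation and replicate, and 0 columns of library values were left unused. Of the gene identifiers, 55154 of 55335 were in GENCODE M21.

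Genes with at least 1 FPKM in at least 3 of the 12 libraries entered limma 3.58.1 (R 4.3.3) as log2(FPKM + 1), with a mean for each group and a variance trend. The test was first run on simulated data. Near copies were sought with blastn 2.17.0 at 95% identity over 20% of a transcript, and 0 were found. Python 3.11.15, numpy 2.4.6, pandas 2.3.3 and matplotlib 3.10.9 were used for tables and plots. The members, lists and tests were chosen with earlier results of these data known. All members were named, with Nlrp3, Xist, Ddx3y, Eif2s3y, Kdm5d, Uty, Tlr11 and Tlr12, and from each pathway list up to 2 called genes with the largest rise and 2 with the largest fall in each stimulation and genotype comparison. Itgam, whose symbol names several genes of the table, was left out of the macrophage markers. Alternatives were a pseudocount of 0.1, no filter or 5 FPKM, no fold limit, TPM, median-ratio or upper-quartile scaling, no variance trend, a replicate block, a fit of only the groups compared and each library left out. Group medians were added after the data were seen.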

Additional observations from a re-analysis of the deposited data

How the results depend on the processing

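Directions and calls of Tlr1, Tlr2, Tlr3, Tlr9 and Tlr13 with stimulation were the same under every alternative tried, in both genotypes. Tlr8 in Nlrp3-/- BMDMs fell under the fold limit after upper-quartile (-0.96) and median-ratio scaling (-0.80). Signs changed for values not called. After upper-quartile scaling these were Tlr4 in control (-0.049) and Tlr1 with LPS+ATP (-0.0085) between genotypes, and the interaction of Tlr13 (-0.012). After median-ratio scaling they were Tlr4 with stimulation in wild-type (0.041), Tlr4 in control (-0.12), Tlr1 (-0.078), Tlr2 (-0.00083) and Tlr3 (-0.0087) with LPS+ATP between genotypes, and the interaction of Tlr13 (-0.0014). The cause was not tested.

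With each library left out, log2 fold changes with stimulation in wild-type ranged from -0.79 to 0.45 for Tlr4 and from -0.41 to 0.51 for Tlr7, and that of Tlr7 in Nlrp3-/- BMDMs from 1.20 to 1.75. Between genotypes in control, Tlr4 ranged from -0.49 to 0.69 and Tlr3 from -0.21 to 0.011. The interaction ranged from 0.89 to 1.81 for Tlr7 and from -0.00074 to 0.069 for Tlr13, with 0 to 1 members called. Differences of group medians, tried after the data were seen, were 0.02 and -0.52 for Tlr4 and 0.09 and 1.71 for Tlr7 with stimulation in wild-type and Nlrp3-/- BMDMs, and 0.27 for Tlr2 between genotypes in control.

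Counts over the table, in the order stimulation in wild-type, stimulation in Nlrp3-/-, genotype in control, genotype with LPS+ATP and interaction, were 2452, 1874, 847, 637 and 271. A pseudocount of 0.1 gave 3702, 2847, 1428, 1406 and 634. Counts rose to 9641, 9383, 6035, 6124 and 3494 without the fold limit, where 5, 5 and 1 members were called in the last 3. TPM gave 1285, 1175 and 501 in the last 3, and a filter of 5 FPKM gave 515 for genotype in control. TPM values were larger than FPKM in these libraries, so the added 1 weighed less in them. With the replicate block the counts were 2453, 1876, 847, 636 and 268, and no call of a member changed. With the group mean of each gene taken off, same-numbered libraries of different groups correlated between -0.06 and 0.05 over 18 pairs. The numbers were therefore not taken as pairs. FPKM limits precision at low levels, as for Tlr5.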
